A study of Mus musculus with 4 samples.

Results

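Natriuretic peptides and their receptors were followed in cardiac endothelial cells of adult mice, which form the inner lining of the heart's vessels and chambers. The set held 6 genes, the peptide precursors Nppa, Nppb and Nppc and the receptors Npr1, Npr2 and Npr3, out of 18353 genes named on the arrays. Members were all non-control probes whose accession mapped through RefSeq to 1 of these symbols, which gave 12 probes on 30 spots, and all 12 were bright enough to be tested. The groups were 2 samples labelled G2-EC-KO, which the labels also call a Gata2 knock out, and 2 control samples, called wild type. Each sample gave total RNA, which was measured in 1 colour, Cy3, on an Agilent oligonucleotide array of its own. The promoter that removed Gata2, the animals' age and whether a sample pooled several animals are not given in the sources used here. The labels do not say that replicates are separate animals, so the p-values measure only how far these samples spread, and part of that spread may be technical.

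Natriuretic peptides are hormones that lower blood pressure and blood volume. Nppa encodes atrial natriuretic peptide, made mainly by atrial cardiomyocytes, and Nppb encodes B-type natriuretic peptide, made by cardiomyocytes under load. Nppc encodes C-type natriuretic peptide, which endothelial cells release. Npr1 is the guanylyl cyclase receptor for the atrial and B-type peptides and Npr2 the one for the C-type peptide, and both make cGMP. Npr3 has no cyclase and takes the peptides up for degradation, which gives it the name clearance receptor. In the mouse heart Npr3 is also used as a marker of endocardium, the endothelium of the chambers.

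Nppa and Nppb are neighbouring genes of mouse chromosome 4, and GATA factors, GATA4 above all, are known from rat promoters to activate both. Since the groups differ by the label of a GATA factor, the 250 bases before the annotated start of both genes are shown, with those of Npr1 and Npr3, the receptors whose values lay on opposite sides of control without passing the test. Sequences are from RefSeq, build GRCm38.p6, 5′ to 3′ on the strand of the gene, and all 6 members had an entry. Capitals mark GATA letters, which are TGATAA and also AGATAA, each with a final G allowed in place of its final A, searched on both strands.
Nppa, chr4:148000472-148000721, plus strand: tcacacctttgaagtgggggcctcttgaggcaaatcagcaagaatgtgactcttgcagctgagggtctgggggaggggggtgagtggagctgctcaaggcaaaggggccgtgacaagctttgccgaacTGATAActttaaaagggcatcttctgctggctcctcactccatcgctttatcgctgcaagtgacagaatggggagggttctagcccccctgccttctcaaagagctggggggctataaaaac
Nppb, chr4:147985650-147985899, plus strand: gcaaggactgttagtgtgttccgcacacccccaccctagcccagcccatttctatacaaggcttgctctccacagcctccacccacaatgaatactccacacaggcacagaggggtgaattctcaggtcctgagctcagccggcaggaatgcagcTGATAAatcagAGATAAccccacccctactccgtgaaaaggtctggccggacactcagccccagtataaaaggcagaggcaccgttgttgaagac
Npr1, chr3:90465867-90466116, minus strand: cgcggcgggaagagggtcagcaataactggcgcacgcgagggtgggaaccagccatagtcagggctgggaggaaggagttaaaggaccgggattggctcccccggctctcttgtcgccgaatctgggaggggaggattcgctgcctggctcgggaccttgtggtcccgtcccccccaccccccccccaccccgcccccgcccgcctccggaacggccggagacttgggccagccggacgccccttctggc
Npr3, chr15:11907372-11907621, minus strand: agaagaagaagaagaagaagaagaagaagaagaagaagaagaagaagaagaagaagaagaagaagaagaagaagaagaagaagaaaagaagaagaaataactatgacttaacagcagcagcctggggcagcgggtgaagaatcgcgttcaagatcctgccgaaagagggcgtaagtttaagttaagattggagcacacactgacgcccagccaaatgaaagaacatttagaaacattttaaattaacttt
The Nppa window held 1 such match, from -122 to -117 relative to the start, and the Nppb window held 2, from -95 to -90 and from -84 to -79. Of 32851 windows of the same length, 26.5% held at least 1 match and 6.4% held at least 2. The windows of Nppc, Npr1, Npr2 and Npr3 held none of these letters, which says nothing about binding of a GATA factor. The letters TATAAA, found in 12.4% of all windows, lay at -9 to -4 in Nppa, at -31 to -26 in Nppb and at -29 to -24 in Nppc. The letters CATTCC, the M-CAT element bound by TEAD factors, were in 12.6% of all windows and at -105 to -100 in Nppb on the opposite strand. None of the matches of different motifs overlapped. The GC content was 70.4% in the Npr1 window and 38.8% in the Npr3 window, against a median of 52.4% over all windows. For Nppb, Npr1, Npr2 and Npr3, the RefSeq gene record begins upstream of the start used here, inside the window searched or beyond it, so other starts of these genes were not searched.

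Levels are given as log2 of the processed signal minus the 75th percentile of the array, so that 0 is the level of that percentile, and levels of different probes cannot be compared. Between 64.2% and 66.9% of spots were well above background on the 4 arrays, and 0 spots were saturated. The gene named in the label, Gata2, did not read lower in G2-EC-KO. Its brighter probe read 2.16 and 2.46 in G2-EC-KO, against 1.85 and 2.17 in control. Its other probe read 1.72 and 1.91 in G2-EC-KO, against 1.53 and 1.75 in control, and limma gave an adjusted p of 0.584 for the brighter and 0.650 for the other probe. Where these probes lie relative to the deleted part is not given in the sources used here, so every direction below rests on the labels. All 14 endothelial markers tested, Pecam1 and Cdh5 among them, were well above background on all arrays, with a median log2 change of 0.0039. Control replicate 2 stood apart in transcripts of the sex chromosomes. There, 6 of 6 probes for the Y-linked genes Ddx3y, Eif2s3y, Kdm5d and Uty were well above background, against 0 on each of the other arrays. The brightest probe of Xist, made from the inactive X chromosome, read -7.82 on that array, against 3.96 and 3.94 in G2-EC-KO and 3.93 on control replicate 1. Values without control replicate 2 are therefore given with the members. The arrays shared 1 slide, with G2-EC-KO on positions 3 and 4 and control on positions 1 and 2, so position and group cannot be told apart.

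None of the 12 member probes passed the test of G2-EC-KO against control by limma with Benjamini-Hochberg adjustment over all 26893 probes tested, where 0.00372% passed an adjusted p of 0.05. At an unadjusted p under 0.05, limma gave 4 member probes higher and 2 lower in G2-EC-KO. This was 6 of 12 probes, against 9.61% of all probes tested, and these 6 belong to 4 genes. The 4 higher probes were all 3 of Npr3 and 1 of Nppb, and the 2 lower ones were that of Npr1 and 1 of Npr2. The groups did not overlap at 7 of 12 member probes, against 46.4% of all probes tested, 5 of them higher, against 24.1% of all, and 2 lower, against 22.3% of all. Probes of 1 gene measure the same RNA and are not separate observations. An exact two-sided permutation test of 2 against 2 arrays cannot give a p below 0.333.

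**Figure D1:**
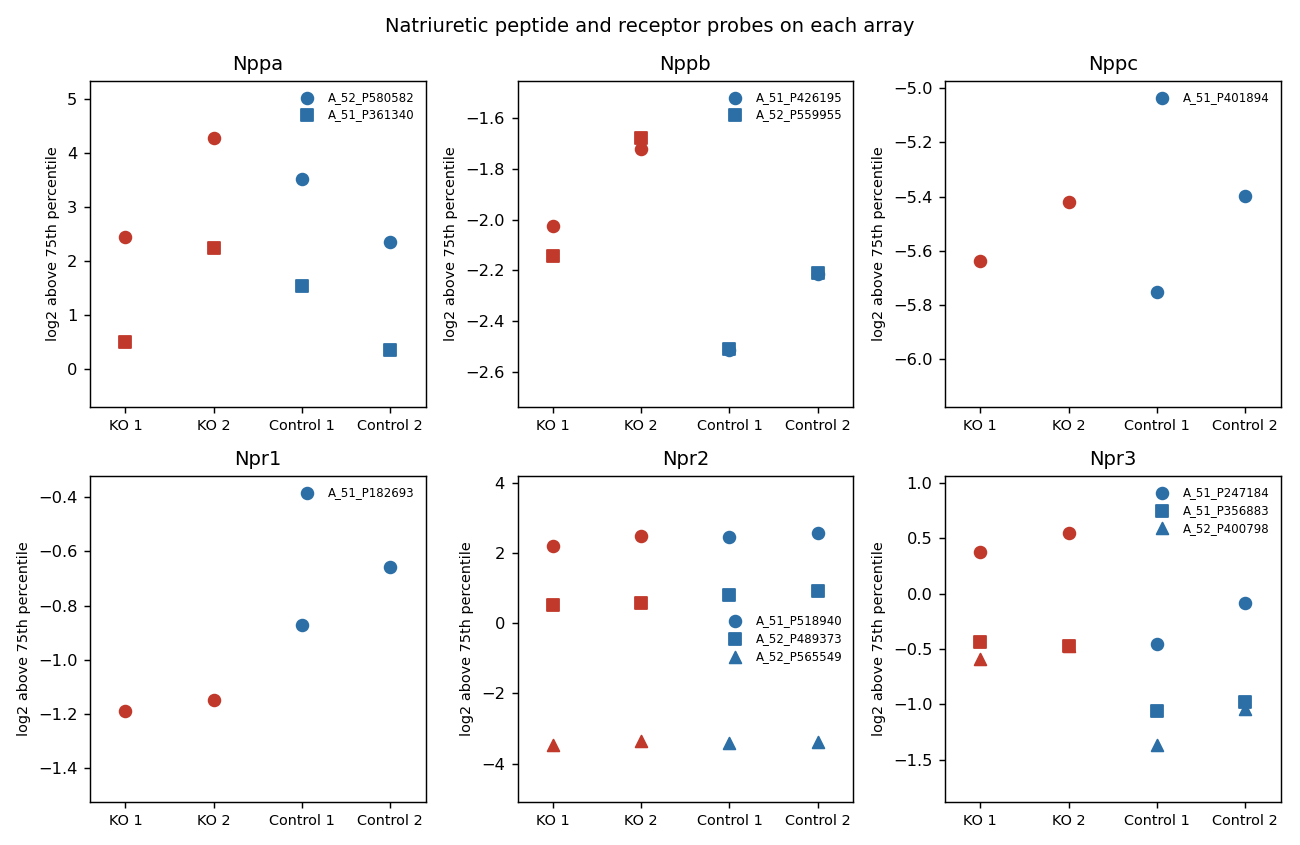
Level of each member probe on each array, as log2 of the signal relative to the array's 75th percentile, with 1 panel per gene on its own axis, red points for G2-EC-KO (KO), blue points for control and a marker shape per probe. All 3 Npr3 probes lie higher on both KO arrays than on both control arrays and Npr1 lies lower, while Nppa is high on KO 2 and control 1.

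Nppa, the atrial peptide gene, varied more within each group than between the groups. Its brighter probe, A_52_P580582, read 2.45 and 4.28 in G2-EC-KO replicates 1 and 2, against 3.53 and 2.35 in control replicates 1 and 2. The processed signals behind these levels were 7061 and 23046 in G2-EC-KO and 16305 and 7367 in control. One array of each group was high and the other low, and the groups overlapped. The level averaged 3.37 ± 1.30 in G2-EC-KO and 2.94 ± 0.83 in control (SD, n = 2 each). The log2 change was 0.43 with a 95% confidence interval of -1.49 to 2.35 (limma, SE 0.73, adjusted p = 0.827). The second probe, A_51_P361340, read 0.50 and 2.24 in G2-EC-KO, against 1.53 and 0.37 in control, with a log2 change of 0.42 (limma, SE 0.70, adjusted p = 0.823). Both probes thus ordered the 4 arrays alike.

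The array prints each Nppa probe on 10 spots, so the spread between spots of 1 array could be read. That spread does not cover technical error between arrays. The SD over the spots of 1 array was between 0.036 and 0.082 for A_52_P580582 and between 0.030 and 0.047 for A_51_P361340. The brighter probe ranged over 1.93 log2 units between arrays, or 3.81-fold, many times the spread between spots. How much of this range is technical was not tested. Only 0.692% of all probes tested had a larger SD within groups than its 1.09, the median over all being 0.133. Leaving out control replicate 2 turned the log2 change of A_52_P580582 to -0.16 and leaving out G2-EC-KO replicate 2 turned it to -0.49. Without control replicate 1 it was 1.01, and without G2-EC-KO replicate 1 it was 1.34. The second probe was at -0.17 without control replicate 2.

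Of the 5 atrial cardiomyocyte markers tested, 4 had the same 2 highest arrays as Nppa, while Dkk3 did not. The atrial myosin light chain gene Myl7 read 2.94 and 4.11 in G2-EC-KO, against 3.32 and 2.25 in control. Myl4, another atrial light chain gene, read 1.68 and 2.91 in G2-EC-KO, against 1.97 and 1.25 in control. Sarcolipin, Sln, an atrial inhibitor of the calcium pump, read 1.39 and 2.95 in G2-EC-KO, against 1.80 and 0.93 in control. Each of the 3 was highest on G2-EC-KO replicate 2 and lowest on control replicate 2, and its groups overlapped. Of the 8 atrial markers listed, 5 were tested and all 5 were higher in G2-EC-KO by their group means, none past the adjusted threshold, with a median log2 change of 0.68. The others, Bmp10, Dhrs9 and Kcnj3, were well above background on 0 arrays. The summed signal of the 5 was 14.8 and 33.6 times the 75th percentile in G2-EC-KO, against 18.4 and 9.89 times in control. The median was 0.066 when G2-EC-KO replicate 2 was left out and 0.32 without control replicate 2. In isolated cells, fewer cells of a type and less RNA per cell cannot be told apart, and the part of these markers in the Nppa levels was not tested.

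Common and ventricular cardiomyocyte markers moved less from array to array than Nppa. All 14 common markers were higher in G2-EC-KO by their group means, none past the adjusted threshold, with a median log2 change of 0.27, against 0.00037 over all probes tested. Their summed signal was 93.5 and 126.7 times the 75th percentile in G2-EC-KO, against 89.1 and 91.7 times in control. The cardiac actin gene Actc1 read 4.85 and 4.63 in G2-EC-KO, against 4.59 and 4.64 in control. Of the 6 ventricular markers 5 were higher, with a median of 0.35, and their summed signal was 36.6 and 45.7 times the 75th percentile in G2-EC-KO, against 27.8 and 36.2 times in control. Leaving out G2-EC-KO replicate 2 brought the medians to 0.023 for the common and 0.096 for the ventricular markers. Both sums were thus highest on G2-EC-KO replicate 2, where Nppa was highest, although Actc1 was not.

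**Figure D2:**
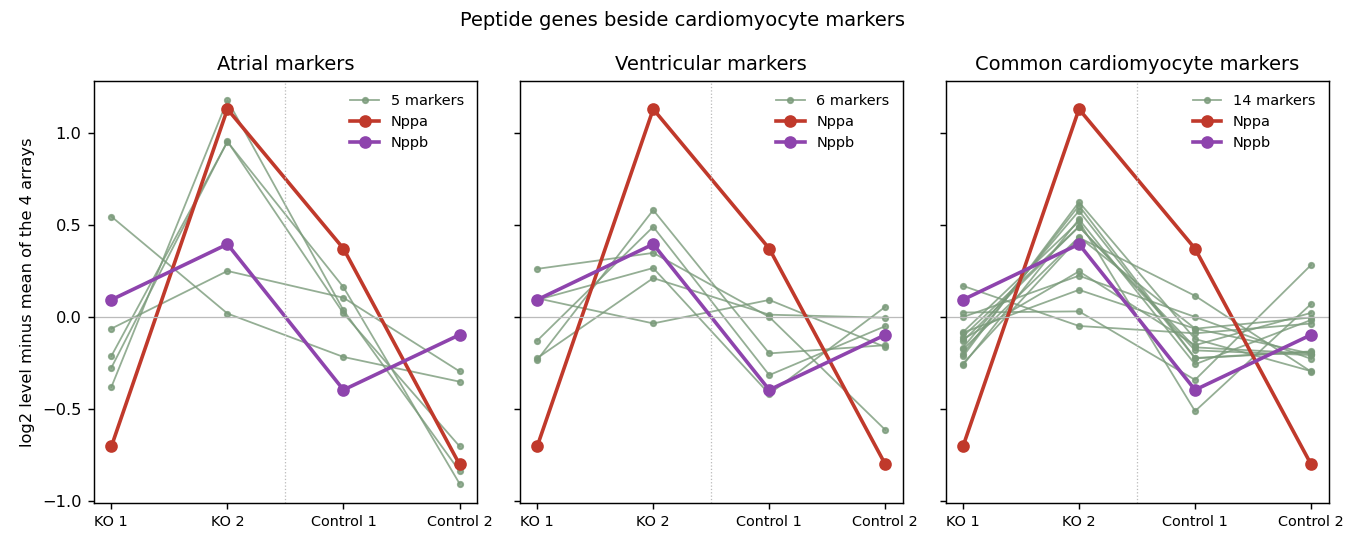
Log2 level of Nppa, Nppb and cardiomyocyte markers on each array, each gene minus its mean over the 4 arrays, with lines that join the values of 1 gene and a panel for atrial, ventricular and common markers. Nppa peaks on KO 2 and is low on KO 1 and control 2, and the atrial markers Myl7, Myl4 and Sln have the same 2 highest arrays in the left panel.

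Nppb, the B-type peptide gene, gave higher values in G2-EC-KO that did not pass. Probe A_51_P426195 read -2.02 and -1.72 in G2-EC-KO, against -2.51 and -2.21 in control. The groups did not overlap. The level averaged -1.87 ± 0.21 in G2-EC-KO and -2.36 ± 0.21 in control (SD, n = 2 each), a log2 change of 0.49 or 1.41-fold (limma, SE 0.17, adjusted p = 0.512). Probe A_52_P559955 read -2.14 and -1.68 in G2-EC-KO, against -2.51 and -2.21 in control, with a log2 change of 0.45 (limma, SE 0.21, adjusted p = 0.548). Leaving out 1 array moved the changes between 0.34 and 0.64 for the first probe and between 0.22 and 0.68 for the second, and without control replicate 2 they were 0.64 and 0.60. The cardiomyocyte markers above lay higher mainly on G2-EC-KO replicate 2. Nppb lay above both control arrays on both G2-EC-KO arrays. So did 3 of the 14 common, 2 of the 6 ventricular and 1 of the 5 atrial markers, against 24.1% of all probes tested. On G2-EC-KO replicate 1 the median marker lay 0.023 log2 units above the control mean in the common list. It lay 0.066 above it in the atrial list and 0.096 above it in the ventricular list. The part of these markers in the Nppb values was not tested.

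Other genes of the cardiac stress program were described as a list, which left out the peptides. Among its 9 genes, 6 were higher in G2-EC-KO and 3 lower, none past the adjusted threshold, and the median log2 change was 0.33. That median was 0.59 without G2-EC-KO replicate 1, 0.16 without G2-EC-KO replicate 2 and 0.18 without control replicate 2. Myh7 is also in the ventricular list and Ankrd1 among the peptide gene regulators below, so these lists are not separate. Genes were counted by sign alone, whatever their direction under stress, and Atp2a2, a calcium pump gene, was counted as higher at 0.026 (SE 0.11). Fhl1, a LIM domain protein gene, read 3.79 and 4.02 in G2-EC-KO, against 3.38 and 3.50 in control, with a log2 change of 0.47 (limma, SE 0.14, adjusted p = 0.461). Myh7, the slow myosin heavy chain gene, had a log2 change of 0.61 (limma, SE 0.23, adjusted p = 0.519). Ccn2, a matrix protein gene induced in stressed hearts, had one of 0.56 (limma, SE 0.24, adjusted p = 0.537). Nmrk2, a nicotinamide riboside kinase gene of muscle, went the other way at -0.46 (limma, SE 0.26, adjusted p = 0.579). Skeletal actin, Acta1, was at -0.18 (SE 0.26), so the members of this list did not share 1 direction.

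Nppc, the endothelial C-type peptide gene, was at the edge of detection. Its probe A_51_P401894 was well above background on 1 of 2 arrays of each group, replicate 2 in both. It read -5.64 and -5.42 in G2-EC-KO, against -5.75 and -5.40 in control, while the lowest level well above background was between -5.93 and -5.48 on the 4 arrays. The processed signals were 25.9 and 27.6 in G2-EC-KO and 26.3 and 34.2 in control. The log2 change was 0.045 with a 95% confidence interval of -0.41 to 0.50 (limma, SE 0.17, adjusted p = 0.927). With the probe this near background, whether the groups differ could not be read. The sign turned to -0.13 without control replicate 1 and to -0.063 without G2-EC-KO replicate 2. Without control replicate 2 the change was 0.22.

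Npr3, the clearance receptor, had the most separated groups among the members. Probe A_51_P247184 read 0.38 and 0.55 in G2-EC-KO, against -0.45 and -0.086 in control, with signals of 1678 and 1726 in G2-EC-KO and 1035 and 1358 in control. Both G2-EC-KO arrays lay above both control arrays. The level averaged 0.46 ± 0.12 in G2-EC-KO and -0.27 ± 0.26 in control (SD, n = 2 each). The log2 change was 0.73, or 1.66-fold, with a 95% confidence interval of 0.29 to 1.18 (limma, SE 0.17, adjusted p = 0.393). Probe A_51_P356883 read -0.44 and -0.48 in G2-EC-KO, against -1.06 and -0.98 in control, with a log2 change of 0.56 (limma, SE 0.11, adjusted p = 0.387). Probe A_52_P400798 read -0.59 and -0.47 in G2-EC-KO, against -1.36 and -1.04 in control, with a log2 change of 0.68 (limma, SE 0.15, adjusted p = 0.390). The 3 probes thus gave 1.48-fold to 1.66-fold higher values in G2-EC-KO, without overlap.

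By limma's unadjusted p, the 3 Npr3 probes were preceded by 1.08%, 2.18% and 2.30% of all probes tested. The smallest of these p was 0.0044, and it did not pass adjustment (limma, adjusted p = 0.387). Leaving out 1 array kept the changes between 0.55 and 0.91 for A_51_P247184, between 0.53 and 0.60 for A_51_P356883 and between 0.52 and 0.84 for A_52_P400798. Without control replicate 2 they were 0.91, 0.60 and 0.84. The other settings of background correction, scaling, filter and variance moved them between 0.51 and 0.75.

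Markers of the endocardium were set beside Npr3, which had been left out of their list. In the 8 tested, 5 were higher in G2-EC-KO and 3 lower, none past the adjusted threshold, and the median log2 change was 0.023, which turned to -0.030 without G2-EC-KO replicate 1, -0.017 without control replicate 1 and -0.0084 without control replicate 2. The brightest, Vwf, the von Willebrand factor gene, read 5.52 and 5.25 in G2-EC-KO, against 5.51 and 5.61 in control, a log2 change of -0.18 (limma, SE 0.14, adjusted p = 0.648). Tgfbi, a matrix protein gene, read 2.20 and 2.01 in G2-EC-KO, against 1.90 and 2.15 in control, a log2 change of 0.079 (limma, SE 0.15, adjusted p = 0.843). The groups of both genes overlapped. Plvap, the diaphragm protein gene, read 2.38 and 2.26 in G2-EC-KO, against 1.85 and 1.92 in control, a log2 change of 0.44 (limma, SE 0.11, adjusted p = 0.432). Cytl1, a cytokine-like secreted protein gene, read 3.35 and 3.15 in G2-EC-KO, against 3.07 and 2.69 in control, a log2 change of 0.37 (limma, SE 0.18, adjusted p = 0.548). The groups of Plvap and Cytl1 did not overlap, nor did those of Cdh11, which was lower at its brightest probe. These were 2 higher and 1 lower of the 8, against 24.1% and 22.3% of all probes tested. By brightest probe, Plvap and Cytl1 had the 2 highest changes of the list. Nfatc1, the endocardial transcription factor gene, read 1.27 and 0.94 in G2-EC-KO, against 1.27 and 1.28 in control. The probes of Cdh11, a cadherin gene, disagreed, with a log2 change of -0.13 at the brightest and of 1.04 and 1.09 at the others. The summed signal of the list was 70.4 and 59.6 times the 75th percentile in G2-EC-KO, against 66.0 and 68.3 times in control. Vwf, also in the endothelial list, made up most of that sum on every array. Hapln1, a further marker, was not tested, and the part of endocardial cells in the Npr3 values was not tested.

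Markers of fibroblasts, macrophages, and red cells and platelets also lay mostly on the higher side in G2-EC-KO, with no gene past the adjusted threshold. The 11 fibroblast markers, 10 of them higher, had a median log2 change of 0.23, and their summed signal was 188.6 and 205.2 times the 75th percentile in G2-EC-KO, against 160.1 and 191.1 times in control. All 10 macrophage markers tested were higher, with a median of 0.33. Ccr2 among them was well above background in G2-EC-KO alone and so was tested only through the group where it is high. The summed signal of the macrophage markers was 12.2 and 10.7 times the 75th percentile in G2-EC-KO, against 8.48 and 11.4 times in control. Of 7 red cell and platelet markers 6 were higher, with a median of 0.45, and their summed signal was 154.0 and 83.4 times the 75th percentile in G2-EC-KO, against 89.0 and 79.3 times in control. The globin gene Hba-a1 made up most of that sum on every array. All 3 sums overlapped between the groups, and the medians moved when 1 array was left out. The macrophage median was 0.025 without control replicate 1 and 0.50 without control replicate 2. The red cell and platelet median was -0.023 without G2-EC-KO replicate 1, 0.89 without G2-EC-KO replicate 2 and 0.22 without control replicate 1. The fibroblast median was 0.10 without control replicate 1 and 0.38 without control replicate 2. The part of these cells in the member values was not tested. Markers of pericytes and smooth muscle had a median of -0.12, which turned to 0.13 without G2-EC-KO replicate 2. Lymphocyte markers had one of -0.036, which turned to 0.17 without control replicate 1 and to 0.0055 without G2-EC-KO replicate 2. Mesothelial and Schwann cell markers had one of 0.091, which turned to -0.023 without control replicate 2.

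Npr1, the cyclase receptor of the atrial and B-type peptides, read lower in G2-EC-KO. Its only probe, A_51_P182693, gave -1.19 and -1.15 in G2-EC-KO, against -0.87 and -0.66 in control. The signals were 566 and 533 in G2-EC-KO and 774 and 913 in control, and the groups did not overlap. The level averaged -1.17 ± 0.028 in G2-EC-KO and -0.76 ± 0.15 in control (SD, n = 2 each). The log2 change was -0.40, so that control was 1.32-fold higher, with a 95% confidence interval of -0.74 to -0.072 (limma, SE 0.13, adjusted p = 0.478). Leaving out 1 array gave changes between -0.51 and -0.30, -0.30 being the value without control replicate 2.

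Npr2, the receptor of the C-type peptide, gave no common answer over its 3 probes. The brightest, A_51_P518940, read 2.21 and 2.50 in G2-EC-KO, against 2.45 and 2.57 in control, and the groups overlapped. Its log2 change was -0.15 with a 95% confidence interval of -0.54 to 0.24 (limma, SE 0.15, adjusted p = 0.696), and it was -0.0076 without G2-EC-KO replicate 1 and -0.093 without control replicate 2. A_52_P489373 read 0.53 and 0.58 in G2-EC-KO, against 0.80 and 0.92 in control, without overlap, with a log2 change of -0.31 (limma, SE 0.11, adjusted p = 0.514), and -0.24 without control replicate 2. The dimmest, A_52_P565549, read -3.46 and -3.35 in G2-EC-KO, against -3.40 and -3.39 in control, with a log2 change of -0.0065 whose sign turned with normexp, quantile normalization and median centring and without G2-EC-KO replicate 1. Without control replicate 2 it was -0.0019. The transcript regions that these probes cover are not given in the sources used here.

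**Figure D3:**
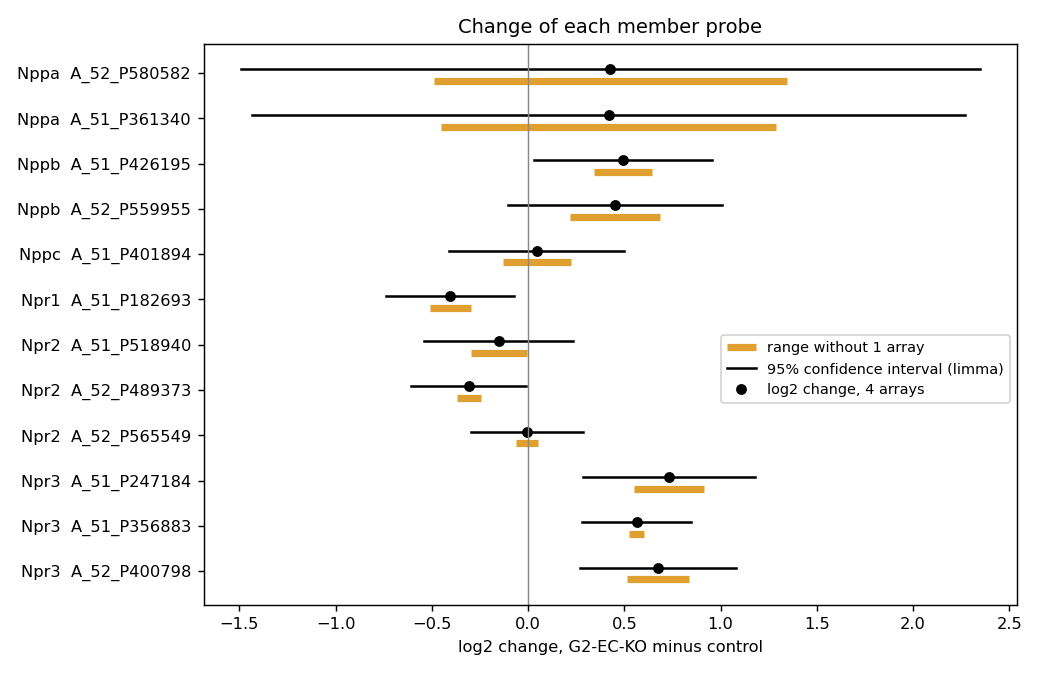
Log2 change of each member probe, G2-EC-KO minus control, as a black point with limma's 95% confidence interval, and below it an orange bar for the range of the change when 1 array was left out. The intervals of the 3 Npr3 probes and of Nppb probe A_51_P426195 lie above 0. Those of Npr1 and of Npr2 probe A_52_P489373 lie below 0, while both Nppa intervals span from below -1.4 to above 2.2. The intervals are not adjusted for the number of probes tested, and no member probe passed the adjusted threshold.

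The rest of the pathway was described from lists of 55 genes, of which 45 were tested. Their median log2 change was 0.016, against 0.00037 over all probes tested, 24 being higher in G2-EC-KO and 21 lower, and 0 passed the adjusted threshold of limma. At an unadjusted p under 0.05, limma gave 3 higher, against 4.96% of all probes tested, and 2 lower, against 4.65% of all. One of the 3 was Pde1c, which was well above background in G2-EC-KO alone and so was tested only through the group where it is high. The others were Dpp4 and Guca2a, and the 2 lower were Prkg2 and Rest. The groups did not overlap at 17 of 45 genes, Pde1c included, against 46.4% of all probes tested.

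Among the enzymes that cut natriuretic peptides, 4 of 6 tested were higher in G2-EC-KO and 2 lower. Corin, the protease that activates the atrial peptide, read -1.48 and -2.02 in G2-EC-KO, against -1.41 and -2.11 in control, a log2 change of 0.016 (SE 0.31). Furin, the protease that cuts the B-type and C-type precursors, had a log2 change of -0.17 (limma, SE 0.13, adjusted p = 0.641). Ide, the insulin-degrading enzyme, had one of 0.11 (SE 0.11), and Ece1, the endothelin-converting enzyme, one of 0.046 (SE 0.11). Dpp4, a dipeptidyl peptidase that can trim the B-type peptide, read -2.33 and -2.21 in G2-EC-KO, against -3.03 and -2.82 in control. Its log2 change was 0.66 (limma, SE 0.13, adjusted p = 0.387), and a second probe gave 0.75. Mme, the neprilysin gene, and Ostn, which encodes another Npr3 ligand, were well above background on 0 arrays.

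Among cGMP effectors, Prkg2, the type II cGMP-dependent kinase gene, had the widest difference of the 7 tested. It read -2.89 and -2.83 in G2-EC-KO, against -1.77 and -1.91 in control, without overlap. Its log2 change was -1.02 (limma, SE 0.12, adjusted p = 0.387), and its second probe gave -0.96. Prkg1, the type I kinase gene of smooth muscle, had a log2 change of -0.33 (SE 0.25). Mrvi1, which encodes a substrate of that kinase and is now called Irag1, had one of -0.34 (SE 0.19). Vasp, a cytoskeletal substrate gene, was at 0.13 (SE 0.12). In all, 2 of 7 tested effectors were higher and 5 lower. Smooth muscle markers, of which 7 of 9 were lower, had a summed signal of 335.9 and 239.2 times the 75th percentile in G2-EC-KO, against 322.8 and 289.9 times in control, and their part in these values was not tested.

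Genes listed as phosphodiesterases went both ways, with 4 of 10 higher, Pde1c and Pde6d included, and 6 lower. Their products degrade cGMP or are regulated by it, except that of Pde6d, a subunit that is not an enzyme. Pde2a, the cGMP-stimulated enzyme gene of endothelium, read 2.55 and 2.56 in G2-EC-KO, against 2.68 and 2.99 in control, a log2 change of -0.28 (limma, SE 0.15, adjusted p = 0.564). Pde1b had one of -0.41 (SE 0.17), and Pde6d one of 0.22 (SE 0.14). On both control arrays Pde1c was not well above background, and limma gave an adjusted p of 0.520. It read -4.72 and -5.79 in G2-EC-KO, the measured control mean being -6.28. A bound set the G2-EC-KO mean of -5.26 against the lowest level well above background, or the level of the probe where higher. Averaged over the control arrays, that level put the G2-EC-KO mean at least 1.27-fold higher. This rests on G2-EC-KO replicate 1, as replicate 2 lay below the lowest such level of each control array, -5.48 and -5.73. Pde5a, the target of sildenafil, had a log2 change of -0.26 (SE 0.25).

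Of the other guanylyl cyclase genes and the guanylins, 3 were higher and 3 lower. The tested subunit genes of soluble guanylyl cyclase, the nitric oxide receptor, were all lower by their means. Gucy1b2 was only at -0.033 (SE 0.18), with groups that overlapped. Gucy1a1 read 2.34 and 1.79 in G2-EC-KO, against 2.53 and 2.43 in control, a log2 change of -0.42 (limma, SE 0.21, adjusted p = 0.559). Gucy1b1 read 3.12 and 2.69 in G2-EC-KO, against 3.19 and 3.15 in control, a log2 change of -0.26 (limma, SE 0.17, adjusted p = 0.610). Guca2a, the guanylin gene, had a log2 change of 0.43 (limma, SE 0.11, adjusted p = 0.425), and Guca2b, uroguanylin, one of 0.61 (SE 0.40). The cGMP exporter genes Abcc4 and Abcc5 were at -0.0056 (SE 0.12) and -0.080 (SE 0.10), and another Abcc5 probe gave 0.26.

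The 14 tested regulators of the natriuretic peptide genes were mostly higher in G2-EC-KO, 11 against 3 lower, none past the adjusted threshold, and their median log2 change was 0.10. Rest, a repressor that silences Nppa and Nppb in ventricles, read 0.45 and 0.25 in G2-EC-KO, against 0.82 and 0.81 in control, a log2 change of -0.47 (limma, SE 0.12, adjusted p = 0.440). Its other probe gave -0.089. Hand2, a cardiac helix-loop-helix factor gene, had a log2 change of 0.56 (limma, SE 0.25, adjusted p = 0.546), and Gata6 had one of 0.30 (SE 0.15). Gata4 read -3.16 and -3.30 in G2-EC-KO, against -3.19 and -3.33 in control, a log2 change of 0.026 (SE 0.12). Mef2a was at -0.21 (SE 0.11). The cardiomyocyte factor gene Nkx2-5 read -2.39 and -1.42 in G2-EC-KO, against -2.38 and -2.35 in control, so that G2-EC-KO replicate 2 alone was high.

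**Figure D4:**
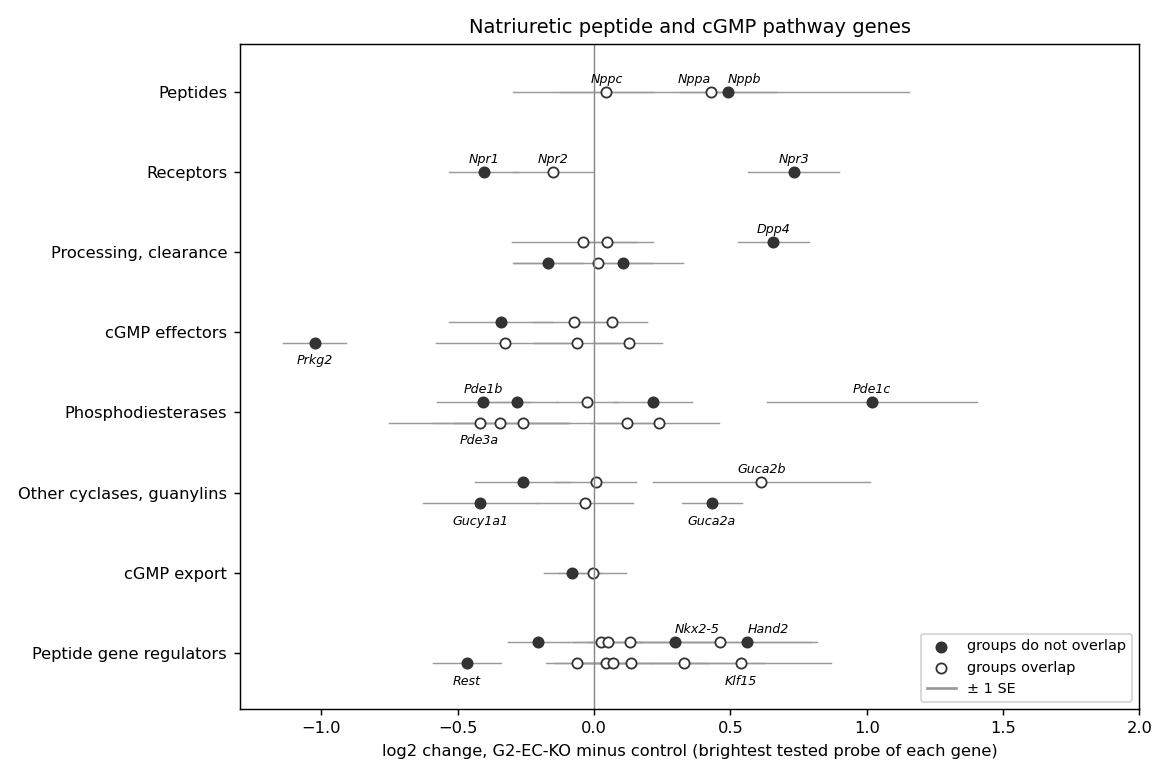
Log2 change, G2-EC-KO minus control, of the brightest tested probe of each member and pathway gene, by list, with a grey line of 1 SE to each side, filled points where the groups did not overlap and open points where they did. Prkg2 lies lowest at -1.02, Npr3 and Dpp4 lie near 0.7, most genes lie close to 0, and Pde1c is drawn at its fitted value although it was not well above background in control.

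The genes whose levels over the 4 arrays lay closest to those of each member were found by the root mean square difference of profiles centred on their means, among 19542 probes with a symbol that were well above background on all arrays. For Nppa these were Rab3b, Tmem163 and Mybphl, the last a myosin-binding protein gene enriched in atria, at 0.23 log2 units each. For Nppb they were the histone gene H4c1, the RNA-binding Lsm6 and the meiotic Mnd1, at 0.017 to 0.025. Npr3 lay closest to the deiodinase gene Dio2, to Rgs1 and to Marchf1, at 0.041 to 0.046. Npr1 lay closest to Fam161a, Prex2 and Ermp1, at 0.021 to 0.026, and Npr2 to Cyp4b1, Scai and Herc1, at 0.0053 to 0.010. With 4 arrays and so many probes, close profiles are found for any gene with a small range, so these are descriptions. Nppa, with its wide range, had no neighbour within 0.22.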

How the data were processed

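RNA of 4 samples, 2 labelled G2-EC-KO and 2 control, was measured on 1 Agilent array each. The scanner files hold spot intensity values that the authors deposited, background-subtracted and detrended within each array per the file headers, from Feature Extraction 10.7.3.1 (10.5 per the submitters' processing notes), and not normalized between arrays. Control spots and 87 to 101 outlier spots per array were removed. Processed signals were put on a log2 scale, centred on each array's 75th percentile and averaged per probe. Of 41174 probes, 26893 were tested, those well above background on 2 or more of the 4 arrays, counted without regard to group. Symbols came from RefSeq (GRCm38.p6) by accession and named 26933 probes. The array annotation is on mm9, so no array coordinates are given.

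The comparison used limma 3.58.1 under R 4.3.3 (lmFit, eBayes, group alone, two-sided, Benjamini-Hochberg at 0.05 over all probes tested, 2 residual and 2.58 prior degrees of freedom). The fit was tested on simulated data. List genes were taken at their brightest tested probe, and Ctgf was matched as Ccn2 and Irag1 as Mrvi1. The number of arrays limits the precision.

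The text names all members, up to 4 genes of each pathway list by p or of each marker list by signal, and 3 nearest profiles per member. Corin, Pde5a, Acta1, Gata4, Nkx2-5, Nfatc1, Cdh11, Pecam1, Cdh5 and the sex-linked genes were added after their values were seen. The members and lists were chosen with earlier results of these data known. Alternatives were normexp (offset 50), quantile scaling, centring on the median, 2 other filters, the deposited table, an intensity trend, robust variances, the mean over a gene's probes, the replicate block, outlier spots kept and each array left out in turn. Normexp used the median spot signal, since the files read here hold no mean. The deposited value table, with medians of 149 and 138.5 in G2-EC-KO and 169 and 166 in control, equals the median signal minus the median local background plus 16 on every spot, so its scale is linear and it is not centred.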

Additional observations from a re-analysis of the deposited data

How the results depend on the processing

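No member probe passed the adjusted threshold under any of the settings run, with limma giving 6 of 12 at an unadjusted p under 0.05 in the design as reported, and no pathway gene passed. Over all probes tested 1 passed as reported, 2 passed with normexp background correction, quantile normalization or median centring, and 0 with an intensity trend, without a filter on dim probes, with a filter on all 4 arrays or with the replicate block. The fit with the replicate block gave 2691 probes at an unadjusted p under 0.05 by limma, against 2585 without it. The same-numbered arrays correlated at 0.044 in their deviations from the group means over 26882 probes, so the numbers were not taken as pairs. Leaving out 1 array gave between 0 and 8 calls, 8 without control replicate 1. At an unadjusted p under 0.05 there were then 5618 probes without G2-EC-KO replicate 1, 2183 without G2-EC-KO replicate 2, 1339 without control replicate 1 and 1445 without control replicate 2.

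The sign of 4 member probes turned. Leaving out 1 array moved Nppa between -0.49 and 1.34 at A_52_P580582 and between -0.45 and 1.29 at A_51_P361340, Nppc between -0.13 and 0.22, and Npr2 probe A_52_P565549 between -0.063 and 0.050. That Npr2 probe was also at 0.012 with median centring, 0.041 with normexp and 0.010 with quantile normalization, and the cause was not tested. The 2 other Npr2 probes and those of Npr1, Nppb and Npr3 kept their direction under every setting run.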

Other observations

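Ratios of 2 probes on the same array do not depend on the scaling between arrays. They were chosen after the values were seen and are given without a test, as log2 values relative to the control mean. The ratio of Npr3 to Npr1, the clearance receptor over the cyclase receptor of the same peptides, was 1.07 and 1.20 in G2-EC-KO, against -0.077 and 0.077 in control. The group means thus differed by 1.14, or 2.20-fold. The ratio of Npr3 to Npr2 was 0.95 and 0.82 in G2-EC-KO, against -0.12 and 0.12 in control.

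The ratio of Nppa to the atrial light chain gene Myl7 was -0.65 and 0.021 in G2-EC-KO, against 0.052 and -0.052 in control. The 2 control values are equal and opposite by construction, being set against their own mean, so only their size can be read. On G2-EC-KO replicate 2 the ratio lay 0.021 above the control mean, and G2-EC-KO replicate 1 lay apart. Nppa itself ranged over 1.93 log2 units. Against Sln the ratio was -0.51 and -0.23 in G2-EC-KO and 0.15 and -0.15 in control, and against Myl4 it was -0.55 and 0.048 in G2-EC-KO and 0.23 and -0.23 in control. Relative to Actc1, a gene of all cardiomyocytes, Nppa was at -0.72 and 1.33 in G2-EC-KO, against 0.61 and -0.61 in control.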
